A study of Mus musculus with 20 samples.

Results

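Tnfaip6 and 8 genes of hyaluronan metabolism were measured in the knee joints of 20 mice with surgically induced osteoarthritis. The genes are Tnfaip6, Has1, Has2, Cd44, Hyal1, Hyal2, Cemip, Cemip2 and Ptx3, found by symbol, and all 9 were present among the 14793 genes that the authors deposited. Tnfaip6 was chosen by its lower level in joints given STING-activated stromal cells than in joints given non-activated cells, and the other genes were selected on their part in hyaluronan biology beside it. For this reason the 9 genes are described with no test in these groups against each other, and nothing is read from counts of other genes in that comparison. The same holds for Tnfaip6 in any comparison that uses either group.

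Male C57BL/6Nci mice, 12 weeks old at the start, underwent destabilization of the medial meniscus (DMM), an operation that cuts a ligament of the medial meniscus, leaves the knee unstable and leads to osteoarthritis. Joint injections followed in weeks 3 and 5 after surgery, and RNA was sequenced from 5 joints per group, each from a different mouse. The tissue was removed as 1 piece with cartilage, synovium, capsule and subchondral bone, and the paper does not give a single time of collection. Its methods place collection weeks after the last injection, and its results place it on the day after injection. Control joints received needle insertion alone. MSC joints received non-activated mesenchymal stromal cells cultured from pooled adipose tissue of male mice of the same strain. TLR3-MSC joints received such cells activated with polyinosinic-polycytidylic acid (pIC), an agonist of the double-stranded RNA receptor TLR3. STING-MSC joints received cells activated with cyclic GMP-AMP, an agonist of the cytosolic DNA-sensing STING pathway. All 4 groups had the operation and there was no sham-operated group, and transcripts of the injected cells cannot be told apart from those of the host. The cells were injected in phosphate-buffered saline, and no group received saline alone. In comparisons with control, cells and injected fluid therefore cannot be told apart.

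Hyaluronan is a long sugar chain of joint fluid, synovium and cartilage matrix, spun out at the plasma membrane by hyaluronan synthases and cut by hyaluronidases. Tnfaip6 encodes TSG-6, a secreted protein that binds hyaluronan and transfers heavy chains of inter-alpha-trypsin inhibitor onto it. Inflammatory stimuli induce it in fibroblasts, stromal cells and chondrocytes, and it is known as an anti-inflammatory product of mesenchymal stromal cells.

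Each joint had between 27955496 and 52529973 reads on the listed genes. The median was 33230113 reads in control, 42283681 in MSC, 33141873 in TLR3-MSC and 31917015 in STING-MSC joints. The values are normalized counts, the reads of a gene divided by a size factor of the joint. MSC replicate 5 stood apart in that 296 genes were listed at 0 there, 239 of them in no other joint, and STING-MSC replicate 5 had 97 such genes, 47 in no other joint. None of the 9 genes was at 0 in any joint.

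Divided by the summed exon length in kilobases, the level averaged over 20 joints was highest for Cd44, at 1454 per kb, followed by Has1 at 468 and Tnfaip6 at 235. The place of Tnfaip6 rests on joints with high counts, as its mean count was 541.7 and its median 133.5. Its level was 182 per kb in control, 273 in MSC, 449 in TLR3-MSC and 35.7 in STING-MSC joints. In STING-MSC joints it lay below Cemip2 (144), Hyal2 (133), Ptx3 (113) and Cemip (37.3). The order below is that of the mean over 20 joints. Cemip2 at 153, Hyal2 at 143 and Ptx3 at 121 per kb formed the middle of the order. Cemip stood at 81.2, Hyal1 at 31.3 and Has2 at 18.9 per kb. Among the synthases Has1 was the most abundant, and Has3, not among the 9 genes, stood at 6.83 per kb. The level of Tnfaip6 spread 82.5-fold and that of Has1 47.5-fold from the lowest to the highest joint, so neighbours such as Has1 and Tnfaip6 overlapped widely in this order. Within groups the SD of log2 levels was 1.72 for Tnfaip6, larger than in 99.6% of all genes, 1.28 for Has1 (98.6%) and 0.96 for Cemip (95.3%). It was 0.68 for Has2 (88.7%), 0.31 for Ptx3 (57.9%), 0.27 for Hyal1 (51.4%), 0.23 for Cd44 (44.9%), 0.20 for Hyal2 (37.5%) and 0.16 for Cemip2 (24.5%).

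Tnfaip6 (ENSMUSG00000053475, GRCm39 chr2:51928021-51946699) had normalized counts of 139, 256, 672, 913 and 122 in control replicates 1 to 5 and of 99.9, 2555, 172, 79.1 and 235 in MSC joints. In TLR3-MSC joints the counts were 97.8, 1115, 162, 92.2 and 3712, and in STING-MSC joints 113, 77.1, 128, 45.0 and 48.0. High counts were thus found in single joints of the first 3 groups, and no STING-MSC joint exceeded 128. The highest STING-MSC joint was 2.85 times the lowest, against 7.50 times in control, 32.3 times in MSC and 40.3 times in TLR3-MSC joints. The group means were 420.4 ± 354 in control, 628 ± 1079 in MSC, 1036 ± 1557 in TLR3-MSC and 82.2 ± 37.5 in STING-MSC joints (SD, n = 5). The group medians of 256, 172, 162 and 77.1 gave a different order from the means for the first 3 groups, whose neighbours do not differ beyond their spread. The STING-MSC range overlapped with that of each other group, with 4 of 5 joints below all control joints, 3 below all MSC joints and 3 below all TLR3-MSC joints.

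**Figure D1:**
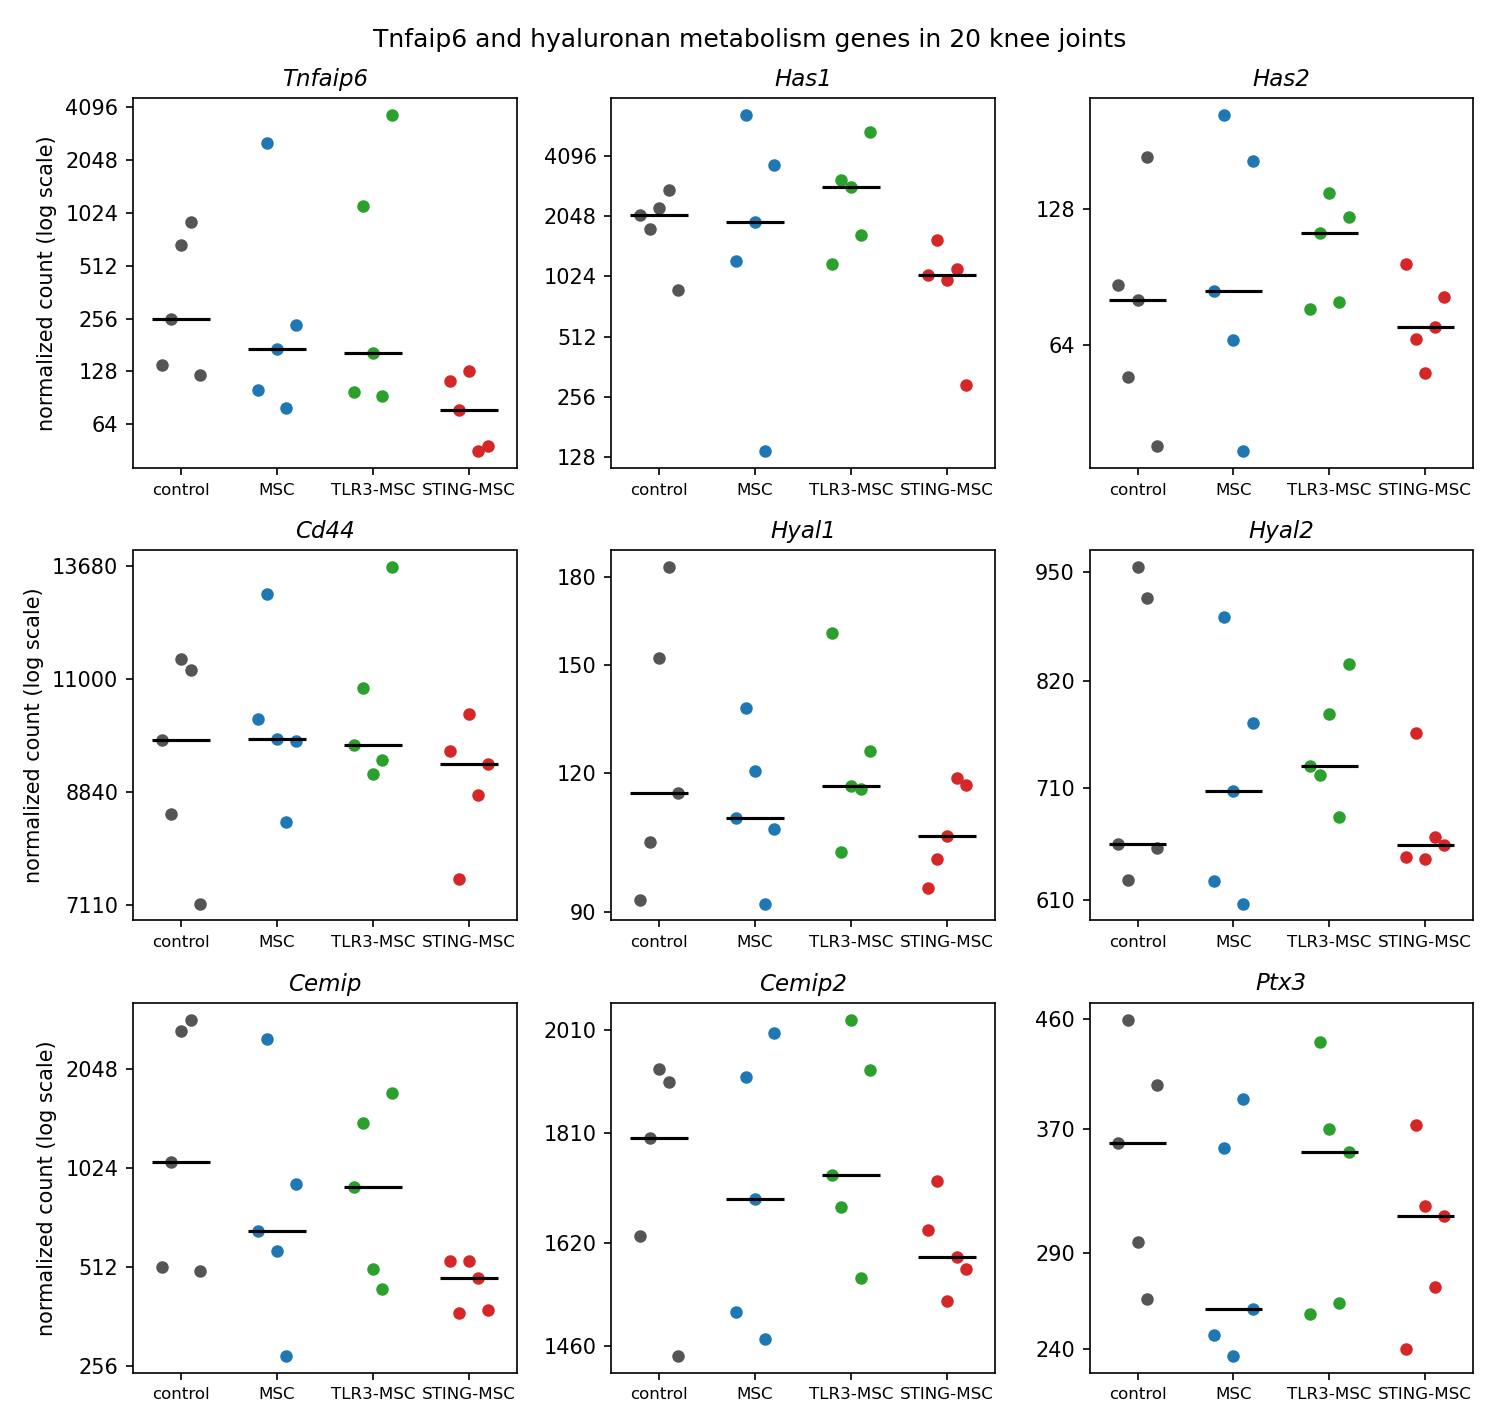
Normalized counts of the 9 genes on log axes, 1 point per joint and 5 joints per group, with a line at the group median. Tnfaip6 reached 2555 in 1 MSC joint and 3712 in 1 TLR3-MSC joint, while the 5 STING-MSC joints lay between 45.0 and 128.

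Has1 (ENSMUSG00000003665, chr17:18063585-18075468) and Has2 (ENSMUSG00000022367, chr15:56529023-56557936) encode membrane enzymes that polymerize hyaluronan. The Has1 count was 2068, 1769, 2233, 2769 and 870.2 in control joints and 1227, 6535, 1909, 138 and 3658 in MSC joints. It was 1177, 3096, 2857, 1639.6 and 5352 in TLR3-MSC joints and 1044, 1551, 983, 1119 and 294 in STING-MSC joints. MSC replicates 2 and 4 held the highest and the lowest Has1 count of all 20 joints, and 4 of 5 STING-MSC joints lay below every TLR3-MSC joint. Means were 1942 ± 701 in control, 2693 ± 2499 in MSC, 2824 ± 1626 in TLR3-MSC and 998 ± 452 in STING-MSC joints (SD, n = 5). Has2 was scarce, at 85.4 ± 49.8 in control, 112 ± 71.4 in MSC, 106 ± 27.4 in TLR3-MSC and 74.0 ± 15.9 in STING-MSC joints. Its ranges overlapped between all groups, and its lowest and highest joints were again MSC replicates 4 and 2, at 37.1 and 208.

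Cd44 (ENSMUSG00000005087, chr2:102641486-102732011), the main cell-surface receptor of hyaluronan, was even across groups. Its mean was 9595 ± 1819 in control, 10210 ± 1684 in MSC, 10530 ± 1847 in TLR3-MSC and 9085 ± 1051 in STING-MSC joints (SD, n = 5). All 20 joints lay within 1.91-fold.

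Cemip (ENSMUSG00000052353, chr7:83582065-83735711), also known as KIAA1199 or HYBID, encodes a protein needed for hyaluronan breakdown by fibroblasts of skin and synovium. Its count was 512, 1070.4, 2687, 2899 and 496 in control joints and 659, 2533, 574, 274 and 917 in MSC joints. In TLR3-MSC joints it was 898, 1409, 505, 438 and 1733, and in STING-MSC joints 534, 369, 532, 472 and 379. Control replicates 3 and 4 and MSC replicate 2 were high, and the STING-MSC joints lay closest together, with the highest 1.45 times the lowest. Means were 1533 ± 1176 in control, 991 ± 892 in MSC, 997 ± 565 in TLR3-MSC and 457 ± 79.8 in STING-MSC joints (SD, n = 5), and 3 of 5 STING-MSC joints lay below every control joint.

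Cemip2 (ENSMUSG00000024754, chr19:21755706-21835725), a membrane protein related to Cemip, ranged over 1.41-fold, with means of 1743 ± 205, 1719 ± 238, 1788 ± 190 and 1614 ± 74.2 in joints of control, MSC, TLR3-MSC and lastly STING-MSC. Hyal2 (ENSMUSG00000010047, chr9:107445144-107449979), a membrane-anchored hyaluronidase, ranged over 1.57-fold with means of 763 ± 160, 722 ± 117, 752 ± 60.9 and 676 ± 50.3 in the same order. Hyal1 (ENSMUSG00000010051, chr9:107454126-107458910), the lysosomal hyaluronidase, ranged over 2.01-fold with means of 129 ± 37.7, 113 ± 17.0, 124 ± 21.9 and 107 ± 10.5. Of the exon bases of Hyal1, 50.8% are shared with Naa80 and 38% with Hyal3 on the same strand, so its count is uncertain. Ptx3 (ENSMUSG00000027832, chr3:66127331-66133227), a pentraxin that works with TSG-6 in assembling hyaluronan-rich matrix, ranged over 1.94-fold with means of 357 ± 78.6, 299 ± 71.4, 337 ± 76.9 and 303 ± 50.5. For each of these genes the ranges of all groups overlapped. In bulk tissue, fewer cells of a type and less RNA per cell cannot be told apart, and this holds for every difference given here.

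MSC joints against control joints show what injection of non-activated cells goes with. No difference among the 8 genes tested passed the threshold. The largest differences of log2 means were −0.63 for Cemip and 0.30 for Has2, followed by −0.27 for Has1 and −0.26 for Ptx3. With single joints left out, Cemip went from −1.07 (without MSC replicate 2) to −0.26 (without MSC replicate 4), and Has2 from 0.02 to 0.63 without the same joints. The direction of Has1 was not stable, since it turned to 0.49 in edgeR and 0.47 in DESeq2. With limma on log2(normalized count + 1), 0 of 8 genes passed an adjusted p of 0.05, against 0.00676% of all genes, and 0 passed an unadjusted p of 0.05, against 5.64% of all genes higher and 2.91% lower. The counts at both thresholds were also 0 in edgeR and DESeq2. The smallest p was 0.189, for Ptx3 (limma, adjusted p = 0.711), and the median difference of the 8 genes was −0.11, against −0.04 over all genes. Tnfaip6, not tested here, had a difference of −0.34 in log2 means, and its direction was not stable either. It turned to 0.59 in edgeR, 0.58 in DESeq2, 0.06 without control replicate 4 and 0.06 without MSC replicate 4, and was −1.19 without MSC replicate 2.

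TLR3-MSC joints against control joints form the comparison in which Tnfaip6 could be tested. Its log2 difference was 0.24 (SE 1.00, 95% interval −1.87 to 2.34, limma adjusted p = 0.9997 over all genes). An exact permutation test gave p = 0.865. The interval reaches from far below to far above the control level, so with this spread a difference inside it could not be shown in either direction. The log2 ratio of the group means was 1.30, since replicates 2 and 5 of TLR3-MSC lay above all control joints and replicates 1 and 4 below all of them, and without single joints the limma value went from −0.60 to 0.73. It was 1.30 in both edgeR and DESeq2, past the threshold in neither. Has2 and Has1 had differences of 0.45 and 0.44, Cemip −0.42, Cd44 0.14 and Ptx3 −0.09. These too moved with single joints: Has2 from 0.21 (without control replicate 5) to 0.74 (control 4), Has1 from 0.16 (TLR3-MSC 5) to 0.71 (TLR3-MSC 1), Cemip from −0.73 (control 5) to −0.10 (control 4) and Cd44 from 0.04 to 0.21. By limma 0 of 9 genes passed an adjusted p of 0.05 (0% of all genes) and 0 an unadjusted p of 0.05 (2.68% of all genes higher, 0.906% lower), and edgeR and DESeq2 also gave 0 at both thresholds. Of all genes, 0 in edgeR and 3 in DESeq2 passed an adjusted p of 0.05. The median was 0.04, against −0.01 over all genes.

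STING-MSC joints against control joints show what injection of STING-activated cells goes with. Cemip was lower in STING-MSC joints, by −1.36 on the log2 scale (SE 0.56, 95% interval −2.55 to −0.18). It was the single member past an unadjusted p of 0.05 (limma p = 0.0262, exact permutation p = 0.0476). It failed the correction over all genes, with an adjusted p of 0.374 in limma, 0.283 in edgeR and 0.0872 in DESeq2. The unadjusted call was lost without control replicate 3 (−1.06, limma adjusted p = 0.695) or control replicate 4 (−1.03, limma adjusted p = 0.86). Has1 had a difference of −1.04 (SE 0.75, limma p = 0.177, exact permutation p = 0.0556), which was −0.65 without STING-MSC replicate 5. Hyal1, Ptx3 and Hyal2 had −0.23, −0.22 and −0.15, and with single joints left out came to −0.09, −0.13 and −0.07 at the least. By limma 0 of 8 genes passed an adjusted p of 0.05 (0% of all genes). In edgeR and DESeq2 also 0 of the 8 passed, against 0 and 85 of all genes. At an unadjusted p of 0.05, 0 genes were higher (6.54% of all genes) and 1 was lower (5.69%). The count lower was 1 in edgeR (7.71% of all genes in the same fit), 1 in DESeq2 (8.02%), and 2 in limma fitted to these groups alone (8.25%), where Has1 also passed.

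The differences from control were negative for 8 of 8 tested genes, against 48.3% of all genes, although Has2 turned to 0.09 after quantile normalization and Cd44 and Has2 turned positive without single joints. The median was −0.19, against 0.01 over all genes. Of the 8 genes 5, Cemip among them, moved with Tnfaip6 from joint to joint, and Tnfaip6 was chosen by its lower level in STING-MSC joints. The 8 signs are therefore neither separate observations nor independent of that choice, and nothing is read from them. The unadjusted call of Cemip carries the same limit. Tnfaip6, not tested here, had a difference of −2.01, which was −2.36 in edgeR and DESeq2 and ran from −2.34 to −1.61 with single joints left out. The same control joints serve in each of the 3 comparisons with control.

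TLR3-MSC joints against MSC joints ask what activation through TLR3 adds to the cells. No difference among the 8 genes tested passed the threshold. Differences ran from 0.04 for Cd44 to 0.71 for Has1 (limma p = 0.352, the smallest of the 8, exact permutation p = 0.603). The value for Has1 rests on MSC replicate 4 and was −0.15 without it, and it was 0.06 in edgeR and 0.07 in DESeq2. The value for Cemip (0.20) was 0.00838 in edgeR and 0.00804 in DESeq2, and that for Has2 (0.15) turned to −0.08 in edgeR and −0.07 in DESeq2. By limma 0 of 8 genes passed an adjusted p of 0.05 (0% of all genes) and 0 an unadjusted p of 0.05 (1.89% of all genes higher, 1.99% lower), and edgeR and DESeq2 gave 0 at both thresholds. Of all genes, 1 in edgeR and 7 in DESeq2 passed an adjusted p of 0.05. The median was 0.14, against 0.03 over all genes. Tnfaip6, not tested here, had a difference of 0.58, which rests on TLR3-MSC replicate 5 and was −0.26 without it, against 1.43 without MSC replicate 2.

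STING-MSC joints against TLR3-MSC joints compare the activated cells with each other. Has1 had a difference of −1.49 (SE 0.75, 95% interval −3.05 to 0.07, limma adjusted p = 0.89), and 4 of 5 STING-MSC joints lay below all TLR3-MSC joints. Its unadjusted p was 0.0606 in limma, 0.0296 in edgeR and 0.0221 in DESeq2, and an exact permutation test gave p = 0.0159. Cemip had −0.94 (limma p = 0.113, exact permutation p = 0.0714) and Has2 −0.51 (limma p = 0.229, exact permutation p = 0.0635). By limma 0 of 8 genes passed an adjusted p of 0.05 (0% of all genes) and 0 an unadjusted p of 0.05 (0.784% of all genes higher, 1.78% lower). In edgeR and DESeq2 also 0 of the 8 passed an adjusted p of 0.05, against 0 and 2 of all genes. At the unadjusted threshold edgeR gave 1 gene lower (3.63% of all genes in the same fit), DESeq2 2 (3.42%), and limma fitted to these groups alone 3 (Has1, Has2 and Cemip), where the share of all genes lower also rose, to 7.43%. All 8 differences were negative, against 44.7% of all genes, with a median of −0.20 against 0.02. These signs share the limit given for STING-MSC against control, and nothing is read from them. Among the marker lists, 3 of 5 epidermis genes were lower in limma (edgeR 5, DESeq2 1), where TLR3-MSC replicate 4 had the highest sum. Of 8 synovial fibroblast genes 0 were lower in limma (edgeR 0, DESeq2 2), with a median of −0.57, and 0 genes of either list passed an adjusted p of 0.05 with any of these tools. Their part in the member values was not tested. Tnfaip6, not tested here, had a difference of −2.25, which was −1.41 without TLR3-MSC replicate 5, −3.67 in edgeR and −3.66 in DESeq2.

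STING-MSC joints against MSC joints are the groups by which Tnfaip6 was chosen, so the values of the 9 genes are only described. The log2 difference was −1.67 for Tnfaip6, −0.78 for Has1, −0.74 for Cemip, −0.36 for Has2 and −0.16 for Cd44. It was −0.08 for both Hyal2 and Cemip2, −0.07 for Hyal1 and 0.04 for Ptx3, with a median of −0.16 for the 9 genes and 0.02 over all genes. Without MSC replicate 2 the difference was −0.82 for Tnfaip6, −0.25 for Has1, −0.30 for Cemip and −0.07 for Has2. Without MSC replicate 4 it was −2.07 for Tnfaip6, −1.64 for Has1, −1.10 for Cemip and −0.68 for Has2. The differences were larger in edgeR and DESeq2, at −2.95 and −2.93 for Tnfaip6, −1.46 and −1.43 for Has1, −1.14 and −1.12 for Cemip and −0.62 and −0.60 for Has2. With MSC replicate 5 left out, Has1 was at −0.46 and Has2 at −0.16, and leaving out STING-MSC replicate 5 gave −0.38 for Has1. Hyal1 turned to 0.0033 without MSC replicate 2, and Ptx3 to −0.0033 in edgeR and to values down to −0.04 without single joints. In the same comparison 5 of 8 immediate-early genes (median log2 difference −0.71) and 5 of 11 inflammatory response genes (median −0.39) were lower and 0 higher at an unadjusted p of 0.05 in limma, against 2.17% and 2.77% of all genes. By limma and edgeR 0 of either list passed an adjusted p of 0.05, and by DESeq2 2 of each. Both lists moved with Tnfaip6 from joint to joint (r = 0.805 and 0.629), and Tnfaip6 was chosen by this comparison. For this reason nothing is read from these counts. The comparisons that follow use MSC or STING-MSC joints as well. In MSC against control 5 of 11 inflammatory response genes were higher and 0 lower at an unadjusted p of 0.05 in limma (median 0.33). The shares of all genes were 5.64% higher and 2.91% lower. Of the 11 genes 0 passed an adjusted p of 0.05 in limma, 2 in edgeR and 3 in DESeq2. In STING-MSC against control 1 of 11 was higher and 1 lower (median −0.03), against 6.54% and 5.69% of all genes. In TLR3-MSC against MSC 4 of 11 were lower and 0 higher, against 1.99% and 1.89% of all genes. In this last comparison 0 of the 11 passed an adjusted p of 0.05 in limma, 1 in edgeR and 2 in DESeq2. Of the immediate-early genes 1 of 8 was higher and 0 lower in MSC against control (median −0.01), against 5.64% and 2.91% of all genes. In TLR3-MSC against MSC 2 of these 8 were lower (edgeR 3, DESeq2 3) and 0 higher. The shares of all genes lower were 1.99% in limma, 2.33% in edgeR and 2.62% in DESeq2. The part of these genes in the member values was not tested.

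**Figure D2:**
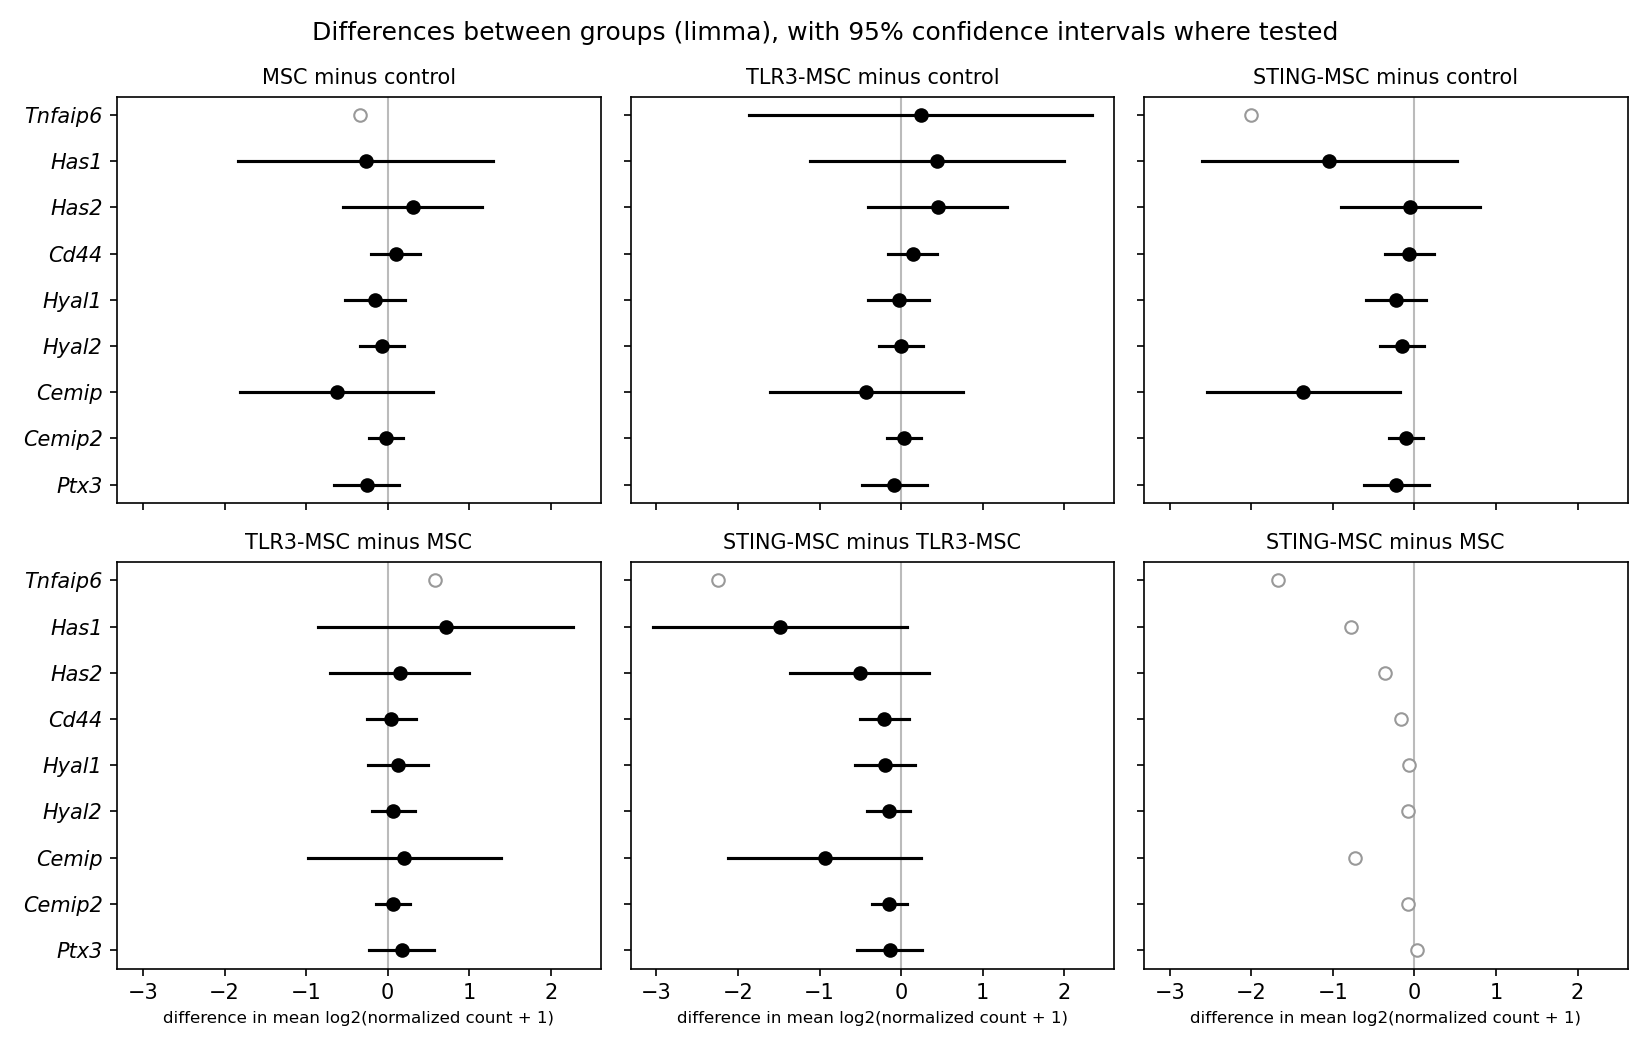
Difference in mean log2(normalized count + 1) for each gene in the 6 comparisons, as points with 95% confidence intervals from limma where a test was made and as open circles where values only are given. Of the intervals drawn, that of Cemip in STING-MSC minus control (−2.55 to −0.18) leaves out 0.

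The listed hyaluronan pathway holds another 37 genes, of which 28 were in the table (8 of synthesis and precursor supply, 5 of breakdown, 5 receptors, 10 of hyaluronan-binding matrix). Gnpnat1, Hyal4, Spam1, Ncan, Hapln2, Itih1, Itih3, Itih4 and Ambp were not in the table. By limma, edgeR and DESeq2 alike, 0 of 28 passed an adjusted p of 0.05 in any of the 6 comparisons. At an unadjusted p of 0.05, 0 passed in MSC against control (edgeR 0, DESeq2 0) and 0 in TLR3-MSC against control. In the latter edgeR gave 2 lower (Hapln3 and Hapln4, 7.14% of the list against 0.777% of all genes). DESeq2 gave 3 lower there (the same and Bcan, 10.7% against 1.21%), with 0 higher in both. The count was 0 for TLR3-MSC against MSC (edgeR 0, DESeq2 0) and 0 for STING-MSC against TLR3-MSC. In the last comparison edgeR and DESeq2 each gave 2, all lower (7.14% of the list, against 3.63% and 3.42% of all genes). With limma fitted to these groups alone it was 6 in the last comparison, 5 lower (17.9% of the list, against 7.43% of all genes in the same fit) and 1 higher (3.57% against 1.07%). In STING-MSC against control, 2 were lower and 0 higher, 7.14% of the list against 5.69% of all genes lower, a share near the background. In edgeR 2 were lower (7.14% against 7.71% of all genes) and in DESeq2 3 (10.7% against 8.02%), with 0 higher in both. The 2 genes lower in limma were Hapln4, a link protein that ties proteoglycans to hyaluronan, and Layn, a hyaluronan receptor. Hapln4 had counts of 43.4, 47.1, 104, 142 and 20.4 in control and 21.0, 37.9, 38.6, 11.2 and 5.76 in STING-MSC joints, a log2 difference of −1.59 (SE 0.56, limma p = 0.011, adjusted 0.33, exact permutation p = 0.0476).

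Layn had counts of 248, 259, 379.5, 374 and 183 in control and 194, 175, 201.3, 216 and 197 in STING-MSC joints. The log2 difference was −0.50 (SE 0.24, limma p = 0.047, adjusted 0.403, exact permutation p = 0.0397), and the call was lost without control replicate 2 (−0.53), 3 (−0.39) or 4 (−0.40), without any 1 of the STING-MSC joints (−0.54 to −0.46), after quantile normalization (−0.39) and with replicate number as a block (limma adjusted p = 0.487). Against MSC joints, at 26.1, 81.7, 38.8, 35.4 and 59.0, STING-MSC joints differed in Hapln4 by −1.22. At an unadjusted p of 0.05 in limma this was 1 lower and 0 higher of 28, against 2.17% and 2.77% of all genes, with 0% of all genes past an adjusted p of 0.05. Tnfaip6 was chosen by this comparison, so nothing is read from the count. Hapln4 lost this call in edgeR (−1.10), in DESeq2 (−1.08), with replicate number as a block, and without MSC replicate 2 (−1.01), 3 (−1.27) or 5 (−1.13) or STING-MSC replicate 1 (−1.27), 4 (−1.06) or 5 (−0.84).

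Within groups, 5 of the 8 other members moved with Tnfaip6 from joint to joint. Correlations were computed over 20 joints on log2 values after group means were subtracted, with 100000 permutations within groups and p-values adjusted over all 14792 other genes. Cemip was closest, with r = 0.858 (p = 2e-05, adjusted 0.000789) and Spearman's rho = 0.827 (p = 0.00018, adjusted 0.00403). Cd44 had r = 0.80 (p = 0.00023, adjusted 0.00326) and rho = 0.755 (p = 0.00084, adjusted 0.00931). Hyal2 had r = 0.683 (p = 0.00127, adjusted 0.0105) and rho = 0.597 (p = 0.00805, adjusted 0.0329), and Has1 had r = 0.672 (p = 0.0052, adjusted 0.0265) and rho = 0.746 (p = 0.00045, adjusted 0.00651). Has2 had r = 0.61 (p = 0.00678, adjusted 0.0313) and rho = 0.573 (p = 0.0173, adjusted 0.0535), so that its rho did not pass.

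Cemip2 (r = 0.562, p = 0.0317, adjusted 0.0905, rho = 0.60, p = 0.0196, adjusted 0.0581), Hyal1 (r = 0.304, p = 0.221, adjusted 0.375, rho = 0.263, p = 0.293, adjusted 0.438) and Ptx3 (r = 0.179, p = 0.521, adjusted 0.682, rho = 0.174, p = 0.526, adjusted 0.662) did not pass. Without MSC replicate 2 and TLR3-MSC replicate 5, the joints farthest from the median of Tnfaip6, r was 0.822 for Cemip, 0.636 for Cd44, 0.575 for Hyal2, 0.527 for Has1, 0.533 for Has2, 0.481 for Cemip2, 0.197 for Hyal1 and −0.02 for Ptx3. Many genes varied in this way. Of all genes, 17.4% were positively and 9.96% negatively correlated with Tnfaip6 at an adjusted p of 0.05, with a median r of 0.0123, against 5 of 8 members and a median r of 0.641. A higher r than that of Cemip was found in 1.78% of all genes, than that of Cd44 in 4.89%, and than those of Hyal2, Has1 and Has2 in 12%, 12.6% and 15.8%.

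The 5 genes most like Tnfaip6 over 20 joints were Slc39a14 (r = 0.967), Mmp19 (0.962), Pcsk5 (0.948), Pcdhb16 (0.946) and Fzd1 (0.945). Slc39a14 encodes a zinc and iron transporter of the plasma membrane, Mmp19 a matrix metalloproteinase, Pcsk5 a proprotein convertase and Fzd1 a Wnt receptor. Over 19 joints, without TLR3-MSC replicate 5, they were Mmp19 (0.963), Slc39a14 (0.962), Fzd1 (0.949), Pcdhb16 (0.935) and Dzip1l (0.934).

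Of the 28 other pathway genes, 12 were positively and 2 negatively correlated with Tnfaip6 at an adjusted p of 0.05, with a median r of 0.484. These are 42.9% and 7.14% of the list, against 17.4% and 9.96% of all genes, so the share of negative relations was not above the background. By Spearman's rho the counts were 11 and 1 (39.3% and 3.57%, against 17.6% and 13.6% of all genes). Those given here were named after their values were seen. Among the 8 genes of synthesis and precursor supply, 4 passed: Gfpt1, which opens the hexosamine pathway (r = 0.824, adjusted p = 0.000725), Uap1 and Pgm3, which lead it to UDP-N-acetylglucosamine (0.82, adjusted p = 0.00167, and 0.768, adjusted p = 0.000789), and Ugdh, which makes UDP-glucuronic acid (0.705, adjusted p = 0.0218). Both sugars are the building blocks of hyaluronan. The Uap1 count was 3604, 3663, 4122, 4593 and 3126 in control joints and 3061, 6532, 3009, 2243 and 5269 in MSC joints. It was 3414, 5284, 5396, 3776 and 7874 in TLR3-MSC joints and 3898, 4147, 3295, 3756 and 2710.3 in STING-MSC joints. The joint highest in Tnfaip6 was also highest in Uap1 in control, MSC and TLR3-MSC, but not in STING-MSC, where it was the second lowest. Of the matrix genes 4 of 10 passed, with Vcan at r = 0.798 (adjusted p = 0.00111), and of the breakdown genes 2 of 5 (1 by rho, where Gusb had an adjusted p of 0.0661). Of the 5 receptors, Layn (0.847, adjusted p = 0.00128) and Stab1 (0.64) were positive and Stab2 (−0.63, adjusted p = 0.0313) and Hmmr (−0.64, adjusted p = 0.0463) negative, and the rho of Stab2 did not pass (−0.565, adjusted p = 0.0645).

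Markers of several joint cell types moved with Tnfaip6 in the same joints, and their part in its level was not tested. The relations were computed for 13 lists with p-values adjusted over the 13, each list scored by the mean log2 level of its genes. The 8 synovial fibroblast markers, with Prg4 most abundant, had r = 0.76 (p = 0.00027, adjusted 0.00329) and rho = 0.841 (p = 1e-05, the smallest the permutations can give, adjusted 0.00013), with 7 of 8 genes positive. Their summed count was 489210, 649650, 1288600, 1421400 and 454190 in control joints and 402590, 1128300, 603490, 259270 and 575800 in MSC joints. It was 561840, 796560, 531510, 404880 and 926240 in TLR3-MSC joints and 484280, 461150, 510330, 432490 and 238500 in STING-MSC joints. The joints with the highest sums, control replicates 3 and 4, MSC replicate 2 and TLR3-MSC replicate 5, were also the 4 joints with the highest Cemip counts. By limma 0 of these 8 markers passed an unadjusted p of 0.05 in STING-MSC against control, where 5.69% of all genes were lower. At this threshold edgeR gave 3 lower (7.71% of all genes) and DESeq2 4 lower (8.02%). Of the 8 markers 0 passed an adjusted p of 0.05 with any of these tools. Their median log2 difference was −0.72 in limma.

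Endothelial markers, with Pecam1 most abundant, had r = 0.762 (p = 0.00076, adjusted 0.00329) and rho = 0.726 (p = 0.00282, adjusted 0.0122), with 5 of 5 genes positive. Their summed count was 6928, 9252, 9986, 12168 and 9809.8 in control, 6665, 11616, 6270.2, 7783 and 8960.3 in MSC, 6502, 8511, 6353, 6114 and 9764 in TLR3-MSC and 6458, 8512, 6034, 6228 and 6242 in STING-MSC joints. Immediate-early genes, with Junb most abundant, had r = 0.805 (p = 0.00069, adjusted 0.00329) and rho = 0.791 (p = 0.00165, adjusted 0.0107), with 8 of 8 genes positive. Their summed count was 11722, 14453, 15690, 19985 and 10251 in control and 8406, 20546, 15641, 12871 and 12296 in MSC joints. It was 6948, 13251, 13667, 7166 and 13067 in TLR3-MSC and 9879, 9764, 9977, 8562 and 6541 in STING-MSC joints. In STING-MSC against control, where Cemip was lower, 3 of 5 endothelial (edgeR 4, DESeq2 5) and 3 of 8 immediate-early genes (edgeR 3, DESeq2 3) were lower and 6 of 8 neutrophil genes (edgeR 5, DESeq2 7) higher at an unadjusted p of 0.05 in limma, against 5.69% of all genes lower and 6.54% higher. The shares of all genes lower and higher were 7.71% and 5.61% in edgeR and 8.02% and 7.14% in DESeq2. In MSC against control 5 of 8 neutrophil genes were higher at an unadjusted p of 0.05 in limma (5.64% of all genes), with 0 past an adjusted p of 0.05 in limma and edgeR and 1 in DESeq2. Of 5 epidermis genes 0 were lower in STING-MSC against control at an unadjusted p of 0.05 in limma (edgeR 5, DESeq2 1), with a median log2 difference of −2.46. By limma and edgeR 0 genes of these lists passed an adjusted p of 0.05 in STING-MSC against control, and by DESeq2 2 immediate-early genes did.

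Inflammatory response genes, with Cebpd most abundant, had r = 0.629 (p = 0.00196, adjusted 0.00637) and rho = 0.581 (p = 0.00967, adjusted 0.0251), but with 6 of 11 genes positive. Osteoblast and osteocyte markers, with Ibsp most abundant, had r = 0.567 (p = 0.0198, adjusted 0.0412) and rho = 0.498 (p = 0.0566, adjusted 0.092), with 6 of 6 genes positive. Chondrocyte markers, with Col2a1 most abundant, did not pass after adjustment (r = 0.55, p = 0.039, adjusted 0.0634, rho = 0.553, p = 0.0354, adjusted 0.0657). Joints with more Tnfaip6 had lower levels of erythroid markers, with Hbb-bs most abundant (r = −0.64, p = 0.00989, adjusted 0.0257, rho = −0.71, p = 0.00431, adjusted 0.014), and of neutrophil markers, with S100a9 most abundant (r = −0.53, p = 0.0222, adjusted 0.0412, rho = −0.56, p = 0.0162, adjusted 0.0351). The negative sign was found for 4 of 4 and 8 of 8 genes.

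The summed count of erythroid markers was 1437500, 1165300, 1049600, 1102300 and 1752400 in control, 1638100, 903700, 1630700, 1403000 and 822980 in MSC, 1580500, 946690, 1039100, 1630300 and 1290200 in TLR3-MSC and 1416900, 1126300, 1387200, 1370700 and 1709900 in STING-MSC joints. MSC replicates 2 and 5 were lowest and control and STING-MSC replicates 5 highest. That of neutrophil markers was 673720, 552130, 466030, 377780 and 426460 in control, 884590, 562960, 778400, 918080 and 537980 in MSC, 645010, 504490, 522700, 780270 and 599500 in TLR3-MSC and 697630, 540150, 814990, 721810 and 839130 in STING-MSC joints. Control replicates 3, 4 and 5 were the lowest and MSC replicates 1 and 4 the highest. That of osteoblast and osteocyte markers was 15156, 18811, 37313, 37360 and 13788 in control, 18544, 35568, 23671, 12352 and 13818 in MSC, 24278, 18699, 16705, 10698 and 27390 in TLR3-MSC and 20164, 14669, 21217, 14627 and 13367 in STING-MSC joints. Control replicates 3 and 4 and MSC replicate 2 held the highest sums, as for Cemip. That of inflammatory response genes was 7963, 8440.0, 8800.5, 9416 and 6585 in control, 9958, 11827, 13005, 12839 and 10301 in MSC, 7465, 7771, 7884, 8487 and 9426 in TLR3-MSC and 7580.2, 6744, 9298, 7944 and 8166 in STING-MSC joints. All 5 MSC joints lay above all control joints in this sum.

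No relation with Tnfaip6 passed for markers of macrophages (Csf1r most abundant, r = 0.212, adjusted p = 0.548, rho = 0.138, adjusted p = 0.733), mast cells (Cpa3, r = 0.121, adjusted p = 0.76, rho = 0.126, adjusted p = 0.746), skeletal muscle (Myh4, r = 0.0872, adjusted p = 0.826, rho = 0.167, adjusted p = 0.733) or adipocytes (Adipoq, r = −0.02, adjusted p = 0.936, rho = −0.05, adjusted p = 0.858). The same held for epidermis (Krt10, r = −0.29, adjusted p = 0.484, rho = −0.10, adjusted p = 0.778), with 4 of 5 genes at 0 in some joint. Its summed count reached 21967 in TLR3-MSC replicate 4 and 6995 in control replicate 1. Apart from these and 1 inflammatory gene, no marker was at 0 in any joint. Without MSC replicate 2 and TLR3-MSC replicate 5, r was 0.691 for synovial fibroblast, 0.598 for endothelial, 0.733 for immediate-early, 0.536 for inflammatory, −0.66 for erythroid, −0.56 for neutrophil, 0.488 for osteoblast and 0.374 for chondrocyte lists.

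**Figure D3:**
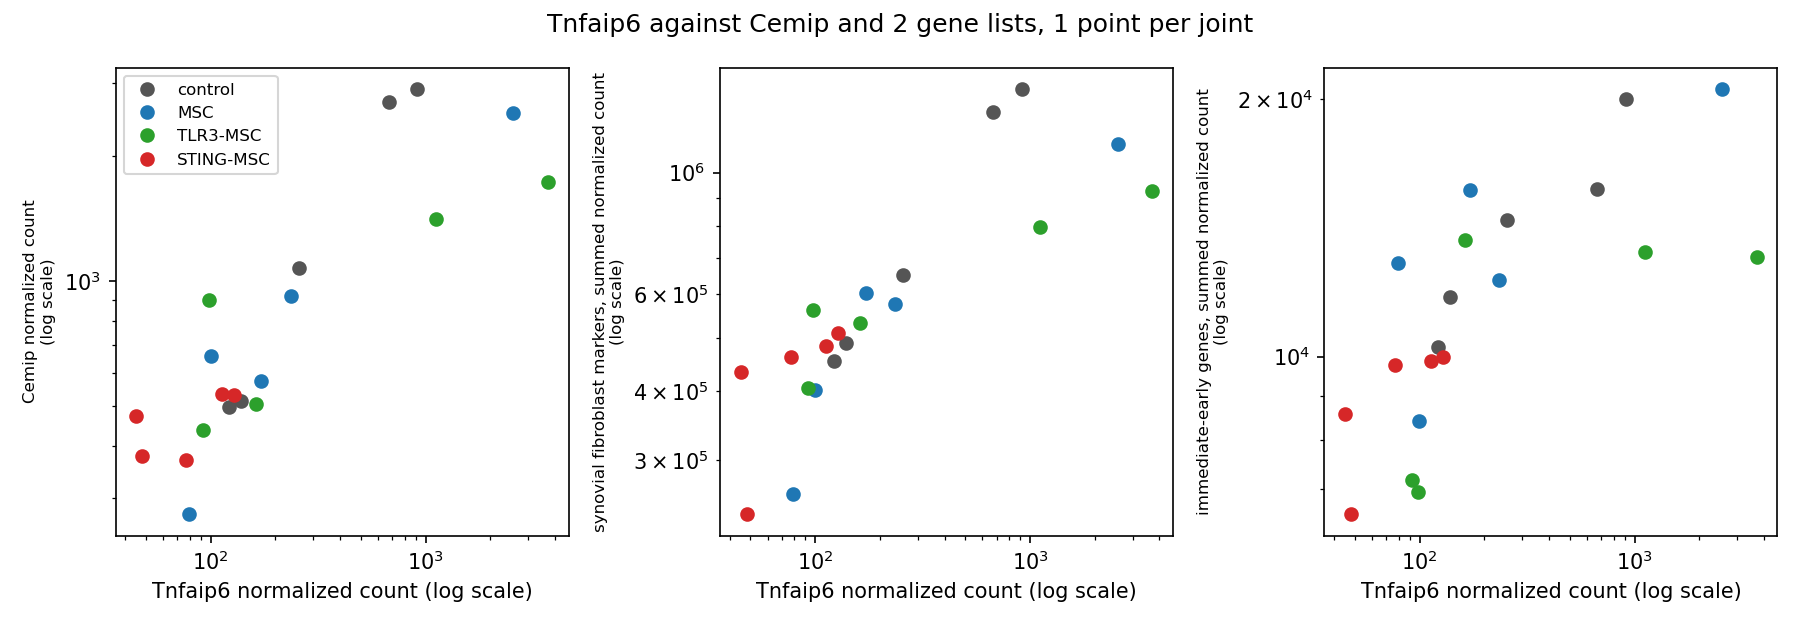
Normalized count of Tnfaip6 (horizontal, log scale) against the normalized count of Cemip and the summed normalized counts of synovial fibroblast markers and immediate-early genes (vertical, log scale), with 1 point per joint coloured by group. After group means are subtracted, r is 0.858 for Cemip, and for the mean log2 level of the listed genes it is 0.76 for synovial fibroblast markers and 0.805 for immediate-early genes.

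Promoter sequences are shown for Tnfaip6, Has1 and Cemip, the members whose levels spread most between joints and moved together. They are the bases before the start of the canonical GENCODE transcript in GRCm39 (chr2:51927998 for Tnfaip6, chr17:18075450 for Has1, chr7:83735710 for Cemip), a start that differs from the one in the deposited gene positions, 250 in length less those held by another transcript, read on the gene's strand from 5′ to 3′, with motif matches in capitals. The windows are chr2:51927748-51927997 (plus strand) for Tnfaip6, chr17:18075469-18075700 (minus strand) for Has1 and chr7:83735725-83735960 (minus strand) for Cemip.
Tnfaip6: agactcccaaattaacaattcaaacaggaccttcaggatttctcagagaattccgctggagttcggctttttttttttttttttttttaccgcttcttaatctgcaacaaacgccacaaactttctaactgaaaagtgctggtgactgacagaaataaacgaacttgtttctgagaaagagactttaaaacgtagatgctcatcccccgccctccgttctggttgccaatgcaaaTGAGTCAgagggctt
Has1: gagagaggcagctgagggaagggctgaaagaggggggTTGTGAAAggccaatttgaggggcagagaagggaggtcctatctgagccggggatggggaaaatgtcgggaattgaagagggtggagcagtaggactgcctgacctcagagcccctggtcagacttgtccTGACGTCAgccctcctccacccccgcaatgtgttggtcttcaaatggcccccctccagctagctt
Cemip: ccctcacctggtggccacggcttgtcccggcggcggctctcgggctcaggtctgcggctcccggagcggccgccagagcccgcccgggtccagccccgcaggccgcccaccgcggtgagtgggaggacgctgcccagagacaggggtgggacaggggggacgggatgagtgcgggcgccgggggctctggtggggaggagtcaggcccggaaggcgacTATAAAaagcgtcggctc
The motifs, chosen after values were seen and searched on both strands, were AP-1 (TGANTCA, in 4.9% of 14770 promoters), CRE (TGACGTCA, 1.86%), C/EBP (TTNNGNAA, 32.7%), NF-kB (GGANTTTCC, 1.28%) and the TATA box (TATAAA, 7.98%). Tnfaip6 held 1 AP-1 match, from 15 to 9 bases before this GENCODE start. Has1 held 1 C/EBP match, from 213 to 206 bases before the start, and 1 CRE match, from 83 to 76. Cemip held 1 TATA match, from 32 to 27 bases before the start. Cemip2 and Ptx3 each held 1 C/EBP match and the other members held none of these letters in this window, and no match overlapped another.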

How the data were processed

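RNA of 20 knee joints, 5 in each of 4 groups, was compared with groups taken from the labels. The authors aligned reads with STAR (2.7.3a) to GRCm39 and counted them with HTSeq. They deposited a normalized signal, gene counts divided by a median-ratio size factor. Strand use in counting is not stated. Whole reads were recovered (tolerance 0.1 reads; 99.84% to 99.92% of values), which gives the depth of each joint. limma (3.58.1, R 4.3.3) with trend was fitted to log2(value + 1) over 20 joints without a block, and p-values were adjusted over all 14793 genes by Benjamini-Hochberg. Single genes were also compared by an exact two-sided permutation test (smallest p 0.00794). The members and lists were chosen with earlier results of these data known. Named genes were the 9 members, at most 6 pathway genes per comparison with the smallest unadjusted p up to 0.05, the 5 genes with the highest r with Tnfaip6, and the most abundant gene of each marker list. Other genes were named after their values were seen: among these are the pathway genes correlated with Tnfaip6. Promoters were read from the GRCm39 assembly with GENCODE starts. As alternatives, the pseudocount was set to 0.5 or 5, genes with a mean under 20 were removed (leaving 14103), the fit was limited to the 2 groups, and values were quantile normalized. edgeR (4.0.16) and DESeq2 (1.42.0) were run on recovered reads, a block for replicate number was added, and single joints were left out. The tests were tested on simulated data.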

Additional observations from a re-analysis of the deposited data

Results flagged for a closer look

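In 4 of 36 sets of 5 joints (9 genes in 4 groups), the highest joint stood apart from the rest, its gap to the next joint being more than 0.71 of the group's range of normalized counts. Chance gives about 1 in 20 for normally distributed values, and these counts are skewed. In MSC replicate 2 the normalized count was 2555 for Tnfaip6 and 2533 for Cemip. In TLR3-MSC replicate 5 it was 3712 for Tnfaip6. In STING-MSC replicate 2 it was 764.5 for Hyal2. On log2 values, a scale tried after seeing the data, the share of the range was 0.688, 0.457 and 0.326 for the first 3 of these, below 0.71, and 0.827 for Hyal2. On that scale 2 sets had a joint apart, with Has1 in STING-MSC replicate 5 (294) as the other. The summed count of synovial fibroblast markers was 1128300 in MSC replicate 2 and 926240 in TLR3-MSC replicate 5, the highest of each group, and its part in these values was not tested.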

How the results depend on the processing

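Of the tested member differences recomputed under each alternative, 726 kept their direction and side of the threshold, 10 newly passed an unadjusted p of 0.05, 2 no longer passed and 41 turned direction, none of which had passed the threshold. Of the untested values, 223 kept their direction and 11 turned (4 of Tnfaip6 in MSC minus control, 1 of Tnfaip6 in TLR3-MSC minus MSC, and 6 of Hyal1 and Ptx3 in STING-MSC minus MSC). In edgeR and DESeq2, Has1 turned to 0.49 and 0.47 (MSC minus control), Hyal2 to −0.0046 and −0.0201 (TLR3-MSC minus control) and Has2 to −0.0753 and −0.0718 (TLR3-MSC minus MSC). Quantile normalization turned Has2 to 0.0916 (STING-MSC minus control). With single joints left out, MSC minus control ranged from −0.80 to 0.59 for Has1, −0.0055 to 0.17 for Cd44, −0.15 to 0.0186 for Hyal2 and −0.0887 to 0.0306 for Cemip2. TLR3-MSC minus control ranged from −0.60 to 0.73 for Tnfaip6, −0.14 to 0.11 for Hyal1, −0.0639 to 0.0882 for Hyal2, −0.0275 to 0.085 for Cemip2 and −0.19 to 0.0121 for Ptx3. STING-MSC minus control ranged from −0.29 to 0.23 for Has2 and −0.17 to 0.0035 for Cd44. TLR3-MSC minus MSC ranged from −0.15 to 1.24 for Has1, −0.18 to 0.44 for Has2, −0.053 to 0.13 for Cd44 and −0.16 to 0.64 for Cemip.

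The count of members past an unadjusted p of 0.05 in STING-MSC against control (1) was 2 with only these groups, and from 0 to 1 with single joints left out (0 without control replicate 3 or 4). In STING-MSC against TLR3-MSC (0) it was 3 with only these groups, 1 in edgeR, 2 in DESeq2 and from 0 to 1 with single joints left out (Has1, without STING-MSC replicate 2 or TLR3-MSC replicate 1). The count of other pathway genes in MSC against control (0) was from 0 to 1 with single joints left out. In TLR3-MSC against control (0) it was 1 with a pseudocount of 5, 2 with only these groups, 2 after quantile normalization, 2 in edgeR, 3 in DESeq2, 1 with the replicate block and from 0 to 2 with single joints left out. In STING-MSC against control (2) it was 1 after quantile normalization, 1 with the block and from 1 to 3 with single joints left out. In TLR3-MSC against MSC (0) it was from 0 to 2 with single joints left out. In STING-MSC against TLR3-MSC (0) it was 6 with only these groups, 2 in edgeR, 2 in DESeq2 and from 0 to 2 with single joints left out. In STING-MSC against MSC (1) it was 0 in edgeR, DESeq2 and the block, and from 0 to 1 with single joints left out. The correlation of Ptx3 with Tnfaip6 was −0.0242 without the 2 farthest joints. The cause was not tested.

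Replicate numbers do not pair the joints: correlations of same-numbered joints ran from −0.658 to 0.464. The block changed no member call (Cemip in STING-MSC against control, −1.36, limma adjusted p = 0.443). Sampling of reads limits mainly genes with few reads, and Has2 was the scarcest member in reads per kilobase.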
